A study of Homo sapiens with 8 samples.

Results

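Genes of glycolysis and of the response to low oxygen were followed in a human lung adenocarcinoma cell line treated with rosiglitazone, carboplatin or both. The members were 43 genes chosen by name, namely the enzymes of glycolysis with their glucose and lactate transporters, 2 enzymes of glycogen metabolism, the hypoxia-inducible factors (HIF) with their hydroxylases, and further targets of these factors. Every probe set annotated with 1 of these symbols on the Affymetrix HG-U133A array was taken, which gave 71 of the 22215 probe sets that are not controls, for 40 of the 43 genes. SLC16A1, SLC16A3 and CA9 had no probe set named in the annotation used and are not analysed here. Of the 71 probe sets, 63 from 37 genes were bright enough to be tested, with a mean log2 signal at or above the 40th percentile of all probe sets. The other 8 were the 3 probe sets of SLC2A3, the 2 of HK2, the 1 of PFKFB4 and 2 of the 3 of ARNT.

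The series title pairs platinum drugs with ligands of PPARγ, a nuclear receptor of lipid metabolism, and asks about their synergy. There were 4 groups of 2 arrays. The combination group received rosiglitazone and carboplatin together, at doses that the labels leave unstated. The rosiglitazone group received 1 µM of this PPARγ ligand alone, and the carboplatin group received 10 µM of this DNA-crosslinking platinum drug alone. The control group is described as DMSO or control medium. All groups were grown in DMEM with serum and treated for 24 h, and oxygen was not named as a variable. The non-small cell lung cancer line is not named in the labels. Nothing in the labels tells whether paired arrays stem from different cultures, so p-values reflect array spread alone, and that spread may be technical.

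In glycolysis, glucose enters the cell through transporters such as SLC2A1, is phosphorylated by hexokinases and is broken down to pyruvate, which LDHA turns into lactate. When oxygen is plentiful, prolyl hydroxylases such as EGLN1 and EGLN3 mark the HIF alpha subunits HIF1A and EPAS1 for destruction. When oxygen is low the alpha subunits persist, pair with ARNT and switch on genes of glucose uptake, glycolysis, blood vessel growth and acid balance, so much of this control acts on protein and is not read by an RNA array. Tumour cells often run this programme at ordinary oxygen levels.

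HIF dimers bind DNA at a short core written here as ACGTG or GCGTG. RefSeq promoter windows (GRCh38.p14, 250 bases before to 50 after an annotated start) were found for 38 of the 43 genes, 69 windows in all. Of these windows 46 (66.7%) held ACGTG or GCGTG on either strand, and 48.4% of all 35116 windows did. At least 1 window held it in 34 of the 38 genes. No such share was taken over all genes, and a gene with several windows has more chances of a match. A direct repeat of AGGTCA with 1 base between the copies (searched on both strands), a form that PPAR dimers bind, was in 0 of the 69 windows and in 0.0228% of all windows. At so low a share 69 windows could hardly hold it, so the 0 tells nothing about these genes. A single AGGTCA was in 8 of the 69 windows (11.6%) and in 13.8% of all windows. The stretches below end at the start and belong to the 4 genes whose signal passed the test described further on. Capitals mark each match to ACGTG or GCGTG, a match on the opposite strand reading CACGT or CACGC.
EPAS1, chr2:46297157-46297406, plus strand: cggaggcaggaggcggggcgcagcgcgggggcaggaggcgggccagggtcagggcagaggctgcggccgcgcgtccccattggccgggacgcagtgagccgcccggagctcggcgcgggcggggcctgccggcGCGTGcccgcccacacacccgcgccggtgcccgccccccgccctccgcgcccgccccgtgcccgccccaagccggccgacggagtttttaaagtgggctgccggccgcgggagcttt
PGM1, first of its 3 annotated starts, chr1:63593161-63593410, plus strand: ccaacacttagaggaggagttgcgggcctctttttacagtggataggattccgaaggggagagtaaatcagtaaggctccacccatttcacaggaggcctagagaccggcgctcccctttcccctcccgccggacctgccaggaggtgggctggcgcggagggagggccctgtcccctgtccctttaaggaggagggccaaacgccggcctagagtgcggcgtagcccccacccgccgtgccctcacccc
CA12, chr15:63381847-63382096, minus strand: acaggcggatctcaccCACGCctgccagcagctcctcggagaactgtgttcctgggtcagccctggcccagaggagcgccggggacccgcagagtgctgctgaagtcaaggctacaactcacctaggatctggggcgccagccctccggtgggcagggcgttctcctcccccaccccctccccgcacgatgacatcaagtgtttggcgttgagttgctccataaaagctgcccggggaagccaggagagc
ADM, chr11:10304823-10305072, plus strand: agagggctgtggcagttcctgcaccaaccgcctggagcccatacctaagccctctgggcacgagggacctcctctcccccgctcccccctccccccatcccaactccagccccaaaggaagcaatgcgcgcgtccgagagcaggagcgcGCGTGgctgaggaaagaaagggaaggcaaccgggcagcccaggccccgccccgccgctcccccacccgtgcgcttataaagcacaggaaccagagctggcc
The match lay 117 bases before the start in EPAS1, 101 in ADM and, on the opposite strand, 234 in CA12, and the stretch of PGM1 held none. The CA12 window held a further match past the start, outside the stretch shown. The window of the second PGM1 start, which lies downstream of the first, held 3 matches. These matches are letters in a window, and no binding was measured.

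The values are deposited signals on a linear scale, taken here as log2(signal + 16) and quantile normalized. Array medians ran from 36.2 to 54.3 signal units, and correlations between arrays were 0.974 to 0.976 within groups and 0.964 to 0.984 between groups. The 4 arrays with rosiglitazone had median signals of 37.2 to 54.3, against 36.2 to 45.8 without it. ANGPTL4, a PPAR target, rose by 2.81 ± 0.16 on the log2 scale (SE) with rosiglitazone (limma adjusted p = 9.96e-06), and CDKN1A, a p53 target, rose by 1.54 ± 0.13 with carboplatin (limma adjusted p = 0.00168). Keratins KRT7, KRT8 and KRT18 lay between the 98.1st and 99.3rd percentile of signal, while EPCAM was below the filter. Lung markers were weak, and their probe sets with the highest means lay between the 20.8th and 52nd percentile. None of the 3 leukocyte and 3 endothelial marker genes on the array passed the filter, and 1 of 4 fibroblast markers did.

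The main effect of rosiglitazone compared the 4 arrays with the drug (combination and rosiglitazone) with the 4 without it (carboplatin and control). It asked which member genes differed with the PPARγ ligand on average over cells with and without carboplatin. Such an average can pass without a call in each setting. Of the 63 member probe sets 4 passed (limma, Benjamini-Hochberg adjusted p under 0.05 over all 13338 probe sets), 3 as rises and 1 as a fall. Over all probe sets 0.885% passed, 0.667% as rises and 0.217% as falls. EPAS1, PGM1 and 1 of 6 probe sets of CA12 rose, and ADM fell. In these bulk samples a change in RNA per cell cannot be told apart from a change in the share of cells that carry it.

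EPAS1 encodes HIF-2α, an oxygen-regulated alpha subunit. Probe set 200878_at read 9.96 and 10.36 in combination arrays and 10.23 and 10.25 in rosiglitazone arrays on the log2 scale. It read 9.16 and 9.52 in carboplatin arrays and 9.34 and 9.37 in control arrays. Every array with rosiglitazone was higher than every array without it. In deposited signal units EPAS1 200878_at read 805.1 and 1635 in combination arrays and 1174 and 1568 in rosiglitazone arrays, against 440.6 and 738.4 in carboplatin arrays and 692.5 and 542.1 in control arrays. The rise was 0.86 ± 0.11 (SE), or 1.81-fold, with a limma adjusted p of 0.00352. It was the only member call that also passed in rosiglitazone against control (0.89 ± 0.16, limma adjusted p = 0.0415), where 0.36% of all probe sets passed. That second call was lost in 9 of 18 alternatives, among them both other scalings, brightness as a covariate and the loss of any 1 of the 4 arrays compared, and the mean of the 2 EPAS1 probe sets missed the threshold there (0.81 ± 0.16, limma adjusted p = 0.0513). In the combination against carboplatin, which shares no array with that comparison, the difference was 0.82 ± 0.16 and did not pass (limma adjusted p = 0.0979). With array brightness as a covariate the rise in the main effect was 0.73 (limma adjusted p = 0.0163). The dimmer probe set 200879_s_at of EPAS1 read 6.48 and 6.38 in combination arrays and 6.85 and 6.38 in rosiglitazone arrays. It read 6.24 and 6.66 in carboplatin arrays and 6.07 and 5.68 in control arrays. Its groups overlapped, and its difference of 0.36 ± 0.17 did not pass (limma adjusted p = 0.547).

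PGM1 encodes phosphoglucomutase, which links glycogen to glycolysis. It read 10.02 and 10.03 in combination arrays and 9.95 and 10.06 in rosiglitazone arrays, against 9.57 and 9.58 in carboplatin arrays and 9.51 and 9.62 in control arrays. The groups with and without rosiglitazone did not overlap, and the arrays within each lay close together. PGM1 rose by 0.45 ± 0.08, or 1.36-fold (limma adjusted p = 0.0216). GYS1, glycogen synthase, was the other glycogen gene, and its difference was 0.03.

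ADM encodes adrenomedullin, a secreted vasodilator peptide whose gene is a HIF target. It read 7.53 and 7.78 in combination arrays and 7.52 and 7.66 in rosiglitazone arrays, against 8.18 and 8.11 in carboplatin arrays and 8.18 and 8.19 in control arrays. On this quantile normalized scale all arrays with the drug were lower. In deposited signal units the groups overlapped. There ADM read 138 and 255.7 in combination arrays and 168.5 and 243.2 in rosiglitazone arrays. It read 219.3 and 268.4 units in carboplatin arrays and 302.7 and 229.9 in control arrays. ADM fell by 0.54 ± 0.11, or 1.46-fold (limma adjusted p = 0.0437). With the deposited scaling the difference was -0.35 and did not pass (limma adjusted p = 0.925).

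**Figure D1:**
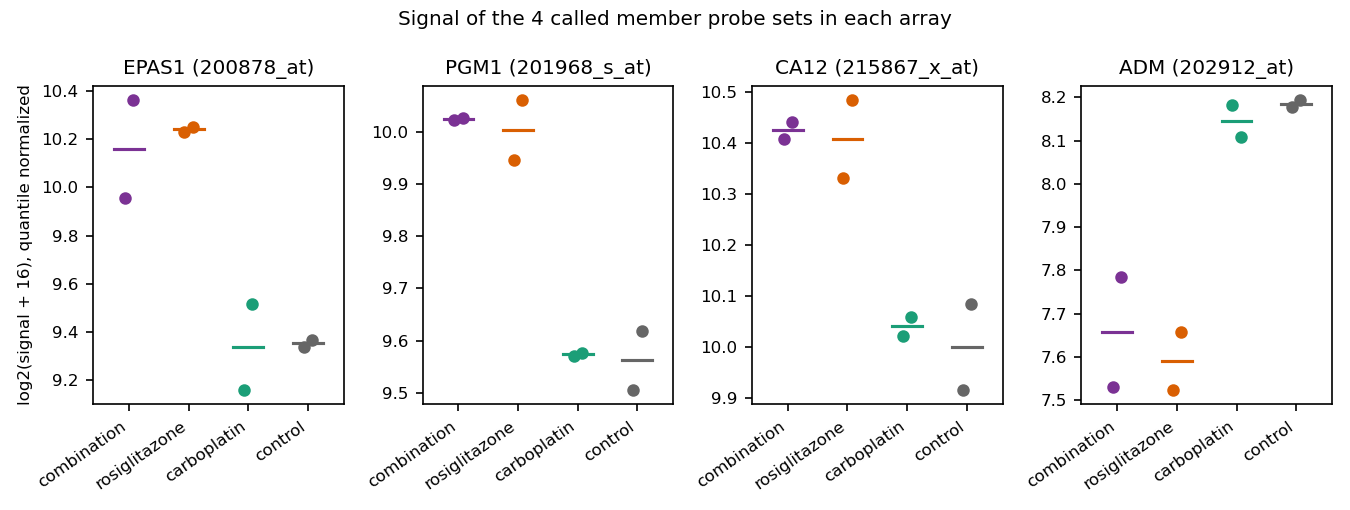
Quantile normalized log2(signal + 16) of EPAS1 (200878_at), PGM1, CA12 (215867_x_at) and ADM in each of 8 arrays, with points for arrays and lines for group means of 2 arrays. In every panel the combination and rosiglitazone arrays are separate from the carboplatin and control arrays, higher for EPAS1, PGM1 and CA12 and lower for ADM, and the vertical axes differ in range.

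CA12 encodes a membrane carbonic anhydrase that helps control pH outside the cell. Probe set 215867_x_at read 10.41 and 10.44 in combination arrays and 10.33 and 10.48 in rosiglitazone arrays, against 10.02 and 10.06 in carboplatin arrays and 9.92 and 10.08 in control arrays. The groups did not overlap, and the probe set rose by 0.395 ± 0.08, or 1.31-fold (limma adjusted p = 0.0443). The suffix x_at marks probes that may also match other transcripts. The other 5 CA12 probe sets did not pass. Their differences were 0.38 (210735_s_at), 0.35 (204508_s_at), 0.32 (203963_at), 0.19 (214164_x_at) and -0.18 (204509_at), the last from the dimmest of the 6. The mean over the 6 probe sets of CA12 differed by 0.24 ± 0.08 and did not pass (limma adjusted p = 0.214), whereas the mean for EPAS1 did (0.61 ± 0.11, limma adjusted p = 0.0236). PGM1 (limma adjusted p = 0.00981) and ADM (limma adjusted p = 0.0178) also passed in that fit of genes. Each of them has 1 probe set, so its mean is that probe set and could not show whether probe sets agree.

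**Figure D2:**
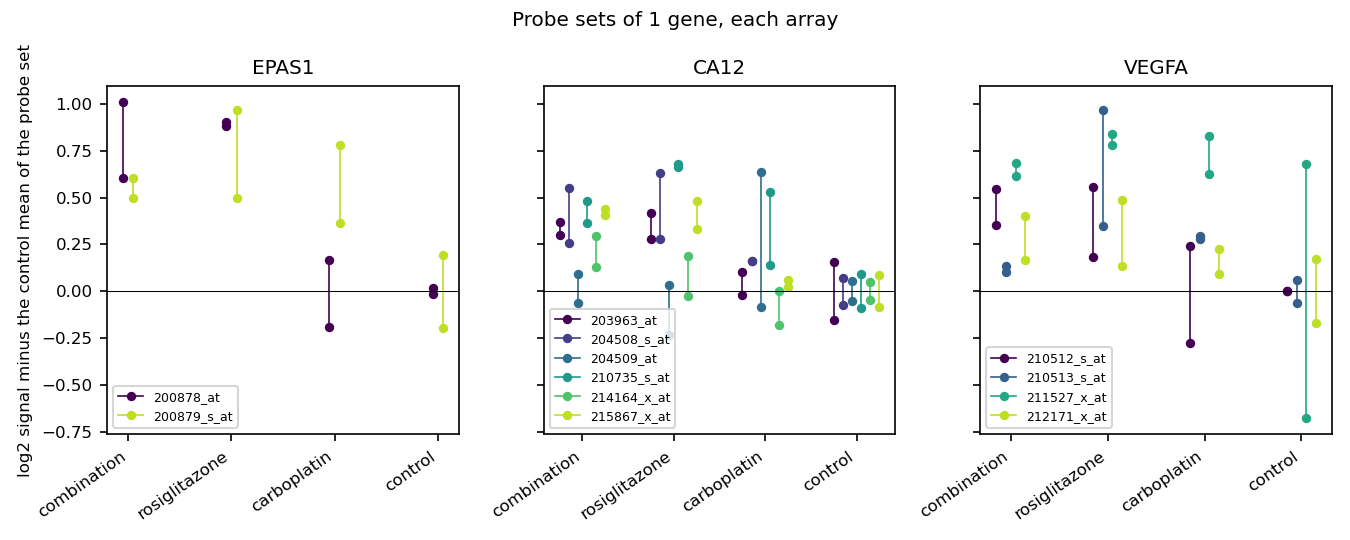
Log2 signal of each tested probe set of EPAS1, CA12 and VEGFA in each array, after subtracting that probe set's control mean, with 1 colour per probe set and a line joining the 2 arrays of a group. The EPAS1 probe set 200878_at separates the groups with and without rosiglitazone, 5 of 6 CA12 probe sets have a higher mean with the drug, and VEGFA probe sets spread widely.

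The 4 calls held up differently when arrays were left out. EPAS1 passed when any 1 of the 8 arrays was left out, with an adjusted p of at most 0.0221, whereas PGM1, CA12 and ADM each missed the threshold in all 8 such fits, with differences of 0.42 to 0.48, 0.355 to 0.435 and -0.60 to -0.48. Without an intensity trend in the variance, none of the 4 passed in limma, EPAS1 having an adjusted p of 0.0587.

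Other HIF factors and hydroxylases did not pass. HIF1A, the other oxygen-regulated alpha subunit, read 10.38 and 10.63 in combination arrays and 10.45 and 10.54 in rosiglitazone arrays, against 10.21 and 10.31 in carboplatin arrays and 10.27 and 10.17 in control arrays. Its groups did not overlap, and its difference was 0.26 ± 0.08 (limma adjusted p = 0.272). ARNT, the partner of the alpha subunits, was tested at 218222_x_at alone. It read 6.13 and 6.46 in combination arrays and 6.61 and 5.87 in rosiglitazone arrays, against 6.35 and 6.61 in carboplatin arrays and 5.84 and 4.77 in control arrays. It overlapped, with a difference of 0.37 ± 0.25 (limma adjusted p = 0.705). The ARNT probe sets below the filter had their highest group mean in control, 5.47 at 210828_s_at and 5.36 at 218221_at. EGLN3 read 5.31 and 5.29 in combination arrays and 5.88 and 5.56 in rosiglitazone arrays, against 5.47 and 5.45 in carboplatin arrays and 5.58 and 4.94 in control arrays. Its combination arrays were among the lowest, and its difference was 0.15 ± 0.20. EGLN1 differed by -0.05, also with overlap. In this class 5 of 6 probe sets were higher with rosiglitazone, with a median of 0.31. That average covers unlike settings. In rosiglitazone against control 6 of 6 were higher, with a median of 0.65, where 48.1% of all probe sets were higher. In the combination against carboplatin 2 of 6 were higher, with a median of -0.09, where 49.3% of all were higher.

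Across HIF targets of other function, 19 of 23 probe sets were higher with rosiglitazone, with a median of 0.22, and 47.8% of all probe sets were higher with a median of -0.01. The 23 probe sets stand for 12 genes, with 6 for CA12 and 4 for VEGFA, so they are not independent counts. Apart from ADM and CA12 none passed in limma, and 9 of 23, these included, had an unadjusted p under 0.05, as did 9.96% of all probe sets. P4HA2, a collagen prolyl hydroxylase, read 8.34 and 8.44 in combination arrays and 8.35 and 8.36 in rosiglitazone arrays, against 8.16 and 8.02 in carboplatin arrays and 8.01 and 8.05 in control arrays. Its groups did not overlap, with a difference of 0.31 ± 0.10 (limma adjusted p = 0.259). ERO1A, an oxidase of the endoplasmic reticulum, read 6.66 and 6.73 in combination arrays and 6.54 and 6.75 in rosiglitazone arrays, against 6.44 and 5.57 in carboplatin arrays and 5.94 and 6.32 in control arrays. It had the largest difference after EPAS1, 0.60 ± 0.20 (limma adjusted p = 0.281), and its carboplatin arrays lay far apart. NDRG1, a gene induced by stress and differentiation, differed by 0.23 without overlap. VEGFA, the blood vessel growth factor, read 8.19 and 7.96 in combination arrays and 7.92 and 8.27 in rosiglitazone arrays, against 7.88 and 8.01 in carboplatin arrays and 7.62 and 7.96 in control arrays at 212171_x_at. These overlapped, and the difference was 0.22 ± 0.13 (limma adjusted p = 0.653). It was 0.13 to 0.31 with single arrays left out, and 0.24 to 0.42 at the other 3 VEGFA probe sets. At 210513_s_at and 211527_x_at the combination mean was below the carboplatin mean, and at the other VEGFA probe sets it was above. Control array 2 was dim at 211527_x_at, with 4.85, where every other array read 6.14 or more.

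Over all 63 member probe sets 43 were higher and 20 lower with rosiglitazone, with a median of 0.06. The arrays did not overlap for 10 as higher and 1 as lower, where 3.2% of all probe sets were higher without overlap and 2.95% lower. These 10 were of HIF1A, EPAS1, PGM1, PFKP, NDRG1, P4HA2, ERO1A and CA12 (3 probe sets). Overlap was judged on quantile normalized values. In deposited signal units EPAS1 200878_at, PGM1, ERO1A and CA12 215867_x_at stayed without overlap, while the rest of these and ADM overlapped. With the deposited scaling the difference over all probe sets had a median of 0.17, and 60 of 63 members were higher, as were 84.3% of all probe sets. Measured against the median of all probe sets, 45 members were higher with quantile normalization and 44 with either other scaling. Unadjusted p was under 0.05 for 13 of the 63 members and for 9.96% of all probe sets.

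The enzymes of glycolysis made up 30 of the probe sets, and none passed in limma for rosiglitazone, with 1 (PFKP) at an unadjusted p under 0.05. Of all probe sets 9.96% had such a p. PFKP, the platelet form of phosphofructokinase, read 11.14 and 11.19 in combination arrays and 11.16 and 11.35 in rosiglitazone arrays, against 10.90 and 11.03 in carboplatin arrays and 11.09 and 11.02 in control arrays. Its arrays did not overlap, and it differed by 0.20 ± 0.07 (limma adjusted p = 0.35). In the first steps, from hexokinase to triose phosphate isomerase, 6 of 13 probe sets were higher with a median of -0.02 and a range of -0.17 to 0.23. In the later steps, from GAPDH to lactate dehydrogenase, 9 of 17 were higher with a median of 0.01 and a range of -0.175 to 0.16. No 95% interval in these 30 reached beyond -0.44 or 0.57.

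GAPDH, glyceraldehyde phosphate dehydrogenase, read 13.59 and 13.51 in combination arrays and 13.51 and 13.52 in rosiglitazone arrays, against 13.57 and 13.57 in carboplatin arrays and 13.51 and 13.54 in control arrays. The groups overlapped, and the difference of -0.02 ± 0.05 (95% interval -0.12 to 0.09) turned to 0.15 with the deposited scaling. Its deposited signals ran from 10880 to 13300 units, near the top of the signal range. There quantile normalization gave several arrays the same value, so the narrow interval does not show that GAPDH was unchanged. LDHA read 12.76 and 12.71 in combination arrays and 12.63 and 12.73 in rosiglitazone arrays, against 12.59 and 12.71 in carboplatin arrays and 12.50 and 12.56 in control arrays. It overlapped with a difference of 0.12 ± 0.06 (limma adjusted p = 0.554). PFKFB3, which makes the allosteric activator of phosphofructokinase, read 9.01 and 9.33 in combination arrays and 8.77 and 9.14 in rosiglitazone arrays, against 9.01 and 9.14 in carboplatin arrays and 9.20 and 8.98 in control arrays. Its groups overlapped, and its difference of -0.02 ± 0.12 turned to 0.18 with the deposited scaling. SLC2A1 was the 1 member glucose transporter with a tested probe set of its own. SLC2A1 read 8.78 and 8.49 in combination arrays and 8.36 and 8.51 in rosiglitazone arrays, against 8.64 and 8.10 in carboplatin arrays and 8.26 and 8.28 in control arrays. It overlapped, with a difference of 0.21 ± 0.13 (limma adjusted p = 0.677) that became 0.346 without carboplatin array 1 and 0.075 without carboplatin array 2. The dimmer SLC2A1 probe set 201249_at differed by 0.12 ± 0.26. Probe sets of GAPDH, ALDOA, LDHB and others carry the suffix x_at and may also read related transcripts.

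**Figure D3:**
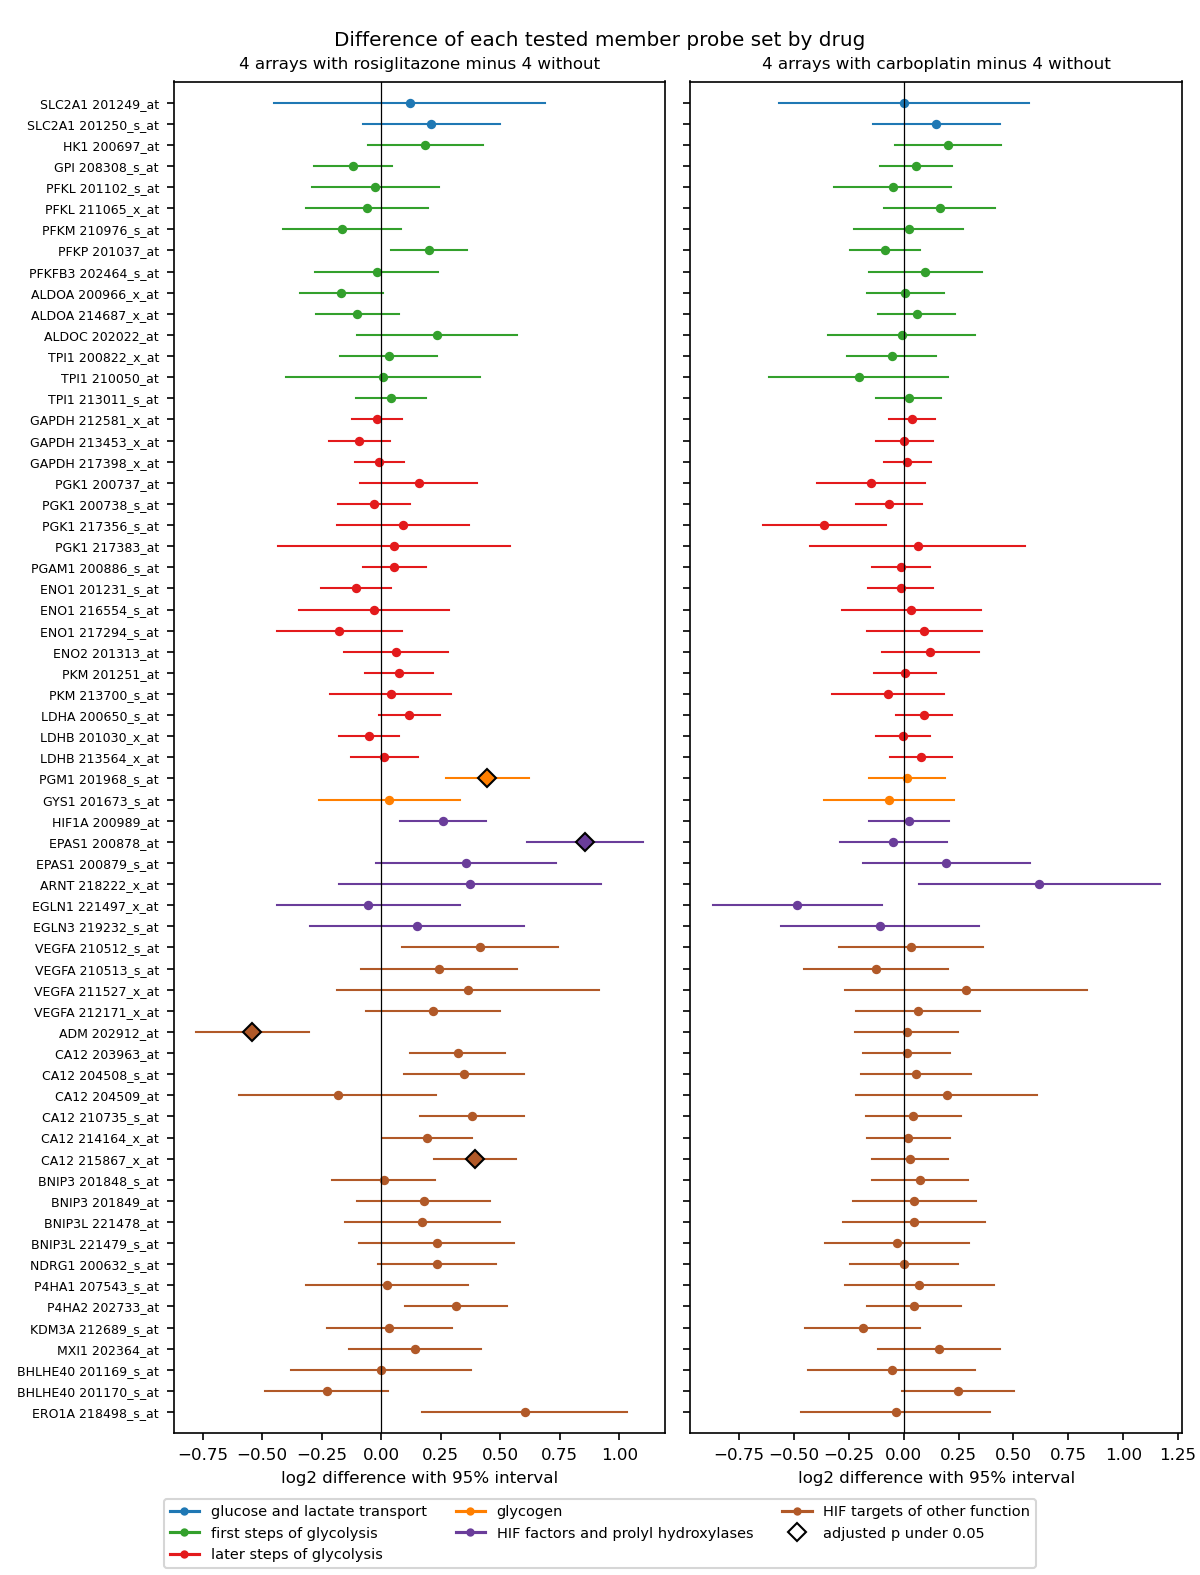
Log2 difference with its 95% interval for each of 63 member probe sets, coloured by role, for the main effect of rosiglitazone (left) and of carboplatin (right). Diamonds mark the 4 probe sets with an adjusted p under 0.05, all on the left, and the 30 probe sets of glycolysis lie between -0.175 and 0.23 on that side.

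Rosiglitazone against control, with 2 arrays a side, called EPAS1 alone. A further 17 members had an unadjusted p under 0.05, 18 of 63 in all (15 higher and 3 lower), where 10.4% of all probe sets did, 5.6% as higher and 4.78% as lower. PGM1 differed by 0.44 ± 0.11 (limma adjusted p = 0.18), ADM by -0.595 ± 0.15 (limma adjusted p = 0.182) and ARNT by 0.93 ± 0.35 (limma adjusted p = 0.398). The ARNT difference was 0.40 to 1.46 when single arrays were left out, the extremes being without control array 2 and without control array 1. These genes are given by their brightest tested probe set, and other probe sets had a p below that of ARNT. CA12 210735_s_at differed by 0.67 ± 0.14 (limma adjusted p = 0.0826), VEGFA 210513_s_at by 0.66 ± 0.21 and PGK1 217356_s_at by 0.56 ± 0.18, and none of these passed. ALDOA, aldolase A, read 12.12 and 11.89 in rosiglitazone arrays and 12.43 and 12.30 in control arrays, with a difference of -0.36 ± 0.11 that did not pass (limma adjusted p = 0.288).

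Carboplatin was compared in the same way, as the 4 arrays with it (combination and carboplatin) against the 4 without it (rosiglitazone and control). No member passed in limma, and 3 of 63 had an unadjusted p under 0.05, where 0.03% of all probe sets passed and 4.02% had such a p. The median over members was 0.02 and 42 were higher, as were 49.1% of all probe sets, but with the deposited scaling 14 of 63 were higher, as were 25% of all probe sets. EGLN1 read 5.94 and 6.29 in combination arrays and 6.49 and 7.09 in carboplatin arrays, against 7.46 and 6.99 in rosiglitazone arrays and 6.70 and 6.60 in control arrays. Its groups overlapped, with a difference of -0.485 ± 0.175 (limma adjusted p = 0.997). KDM3A, a histone demethylase gene, was the only member whose arrays did not overlap, lower by 0.19 (1.16% of all probe sets were lower without overlap). The probe set of smallest p was PGK1 217356_s_at, dimmer than another of that gene, with a difference of -0.36 ± 0.13 (limma adjusted p = 0.997) and overlapping arrays. ARNT differed by 0.62 ± 0.25 and did not pass, and without control array 2 the difference was 0.36. BHLHE40, a transcriptional repressor, read 8.14 and 8.09 in combination arrays and 8.15 and 8.27 in carboplatin arrays, against 7.69 and 7.78 in rosiglitazone arrays and 7.89 and 8.31 in control arrays at its brighter probe set. The highest array was a control, and the difference of 0.25 ± 0.12 did not pass. HK1, a hexokinase, read 9.53 and 9.50 in combination arrays and 8.98 and 9.40 in carboplatin arrays, against 9.11 and 9.24 in rosiglitazone arrays and 9.02 and 9.24 in control arrays, with a difference of 0.20 ± 0.11 that did not pass. The lowest HK1 array was a carboplatin array. With single arrays left out the differences were 0.14 to 0.35 for BHLHE40 and 0.096 to 0.31 for HK1. EPAS1 differed by -0.05 ± 0.11, PGM1 by 0.02 ± 0.08, ADM by 0.01 ± 0.11 and CA12 215867_x_at by 0.03 ± 0.08.

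Carboplatin alone against control gave no limma call among the members, with 4 of 63 at an unadjusted p under 0.05, where 0.015% of all probe sets passed and 5.17% had such a p. The smallest p was for ARNT, which read 6.35 and 6.61 in carboplatin arrays and 5.84 and 4.77 in control arrays, a difference of 1.18 ± 0.35 (limma adjusted p = 0.879). The groups did not overlap, but the control arrays lay far apart, and with either of them left out the difference was 0.65 or 1.70. Control array 2 was dim at this probe set, 218222_x_at, with 9.77 deposited signal units. The ARNT probe sets below the filter had lower means with carboplatin than in control, 5.41 against 5.47 at 210828_s_at and 4.95 against 5.36 at 218221_at. The other 3 probe sets at an unadjusted p under 0.05 were ENO1 217294_s_at (0.41 ± 0.17), CA12 210735_s_at (0.33 ± 0.14) and EPAS1 200879_s_at (0.57 ± 0.24). Each was without overlap and each had a limma adjusted p of 0.927. Of all 13338 probe sets 2163 were higher without overlap in this comparison and 2520 lower. None of them is its gene's brightest probe set. By brightest probe set the next genes in order of p had unadjusted values of 0.13 to 0.23. P4HA1, a collagen prolyl hydroxylase gene, read 7.13 and 7.20 in carboplatin arrays and 6.84 and 6.93 in control arrays, a difference of 0.28 ± 0.22. TPI1, triose phosphate isomerase, read 11.58 and 11.84 in carboplatin arrays and 12.01 and 11.82 in control arrays, a difference of -0.21 ± 0.13. LDHA differed by 0.12 and ALDOA by -0.185, and none of these 4 passed. With single arrays left out the differences were -0.34 to -0.08 for TPI1, 0.06 to 0.18 for LDHA and -0.32 to -0.05 for ALDOA.

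The combination against control called no member in limma, with 13 of 63 (12 higher and 1 lower) at an unadjusted p under 0.05, where 0.225% of all probe sets passed and 8.42% had such a p, 4.57% as higher and 3.85% as lower. EPAS1 differed by 0.81 ± 0.16 (limma adjusted p = 0.0722), PGM1 by 0.46 ± 0.11 (limma adjusted p = 0.167), ADM by -0.53 ± 0.15 (limma adjusted p = 0.298), ARNT by 0.99 ± 0.35 (limma adjusted p = 0.454) and P4HA2 by 0.36 ± 0.14 (limma adjusted p = 0.501). The ARNT difference was 0.46 without control array 2. For these 5 genes the arrays of the 2 groups did not overlap. With 2 arrays a side this was common, since 2308 of all 13338 probe sets were higher without overlap and 2601 lower. The combination against carboplatin called none either, with 10 of 63 at an unadjusted p under 0.05, where 0.157% of all probe sets passed and 6.43% had such a p. The combination against rosiglitazone also called none, with 4 of 63 at such a p, where 0.0225% passed and 4.54% had one.

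Rosiglitazone against control and the combination against carboplatin share no array. Of the 63 member probe sets 38 had the same sign in both (60.3%), against 52.6% of all probe sets. Across the 63 probe sets the Pearson correlation was 0.17 (0.14 across all), and probe sets of 1 gene are not independent points. In the combination against carboplatin PGM1 differed by 0.45, ERO1A by 0.69, CA12 215867_x_at by 0.38 and ADM by -0.49. The same probe sets differed by 0.44, 0.51, 0.41 and -0.595 in rosiglitazone against control. The interaction, which tests whether the effect of rosiglitazone differs with carboplatin, called no member in limma, with 7 of 63 at an unadjusted p under 0.05 (0% of all probe sets passed and 5.97% had such a p). Carboplatin alone against control and the combination against rosiglitazone also share no array, and 22 of 63 had the same sign (34.9%, against 45.9% of all).

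**Figure D4:**
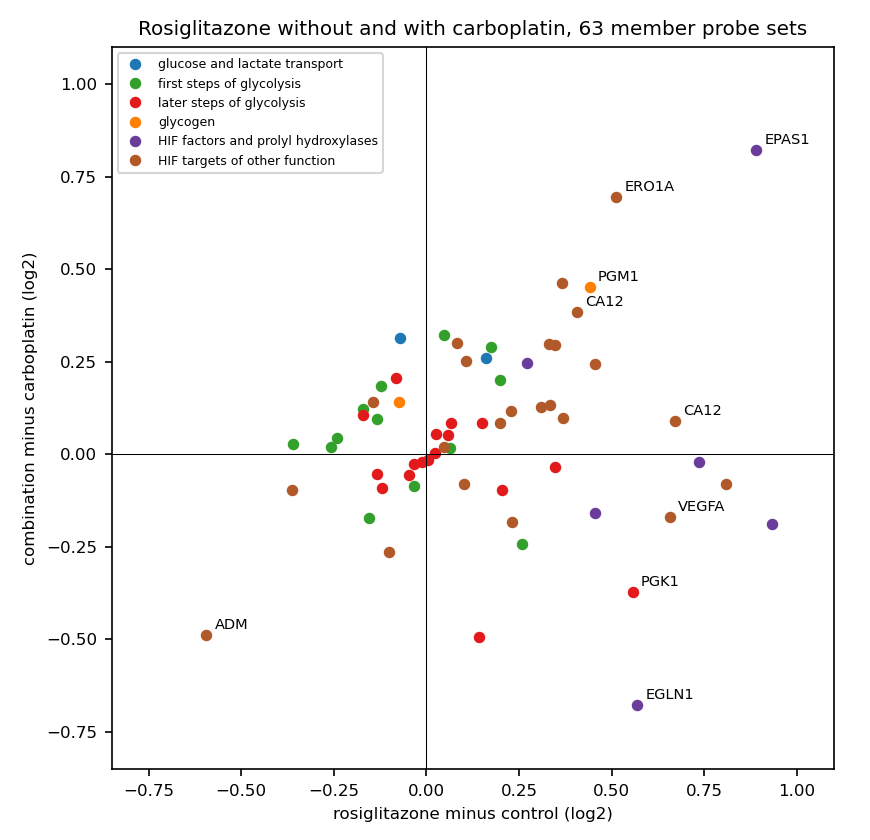
Log2 difference of rosiglitazone minus control (horizontal) against combination minus carboplatin (vertical) for 63 member probe sets coloured by role, with selected probe sets labelled by gene. EPAS1, PGM1 and ERO1A lie at the upper right and ADM at the lower left, and PGK1 217356_s_at and EGLN1 lie at the lower right, higher in 1 comparison and lower in the other.

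Genes around these pathways were listed by name as well, namely other isozymes and neighbours of glycolysis, the pentose phosphate pathway, glycogen enzymes, oxygen sensing and further HIF targets. Of their genes 47 were tested with 70 probe sets, and none was called by limma in any of the 8 comparisons, with 3 to 7 of the 70 at an unadjusted p under 0.05 in each. Of all probe sets 4.02% to 10.4% had such a p. With rosiglitazone 32 of the 70 were higher, with a median of -0.01, and 5 had an unadjusted p under 0.05. For that main effect 47.8% of all probe sets were higher and 9.96% had such a p. Of the 36 probe sets of further HIF targets, such as DDIT4, PLOD2 and VEGFC, 16 were higher with a median of -0.01.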

How the data were processed

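The authors deposited an intensity value (linear signal) for every probe set of 8 Affymetrix HG-U133A arrays. How the authors corrected background and scaled the arrays, and with which software, is not given in the sources used here. Per the labels' protocols, cDNA synthesis was primed with oligo-dT and cRNA was biotinylated. From these values log2(signal + 16) was quantile normalized in limma 3.58.1 (R 4.3.3), the 68 control probe sets and those with a mean below the 40th percentile were left out, and 13338 remained. Of the 22283 probe sets 19071 are annotated with 1 gene symbol, 1043 with several and 2169 with none, and only the first were named. A model with 1 coefficient per group was fitted with lmFit and eBayes with an intensity trend (4 residual and 7.1 prior degrees of freedom). Tests of the 8 contrasts were two-sided, p-values were adjusted across the 13338 probe sets (Benjamini-Hochberg), and 0.05 was the threshold. Precision is limited by having only 2 arrays per group.

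The members and lists were chosen with earlier results of these data known. Full values are given for called members, for the 5 member genes of smallest p in each contrast with control and each main effect (each gene by its tested probe set of highest mean), and for HIF1A, SLC2A1, HK2, PFKFB3, LDHA, GAPDH, VEGFA and EGLN3. Other genes are given as counts and ranges. Alternatives were the deposited and median scalings, pseudocounts of 1 and 64, no filter or one at the 60th percentile, no intensity trend, only the groups compared, replicate number as a block, array brightness as a covariate, the mean of a gene's probe sets, and each array left out. Deviations of same-numbered arrays from their group means correlated at -0.11 to 0.25 over 6 pairs of groups, with 1 above 0.1. The pairs with control were negative (-0.088, -0.063 and -0.11) and the others positive (0.082, 0.094 and 0.253). Array numbers need not follow a pairing, so this check cannot exclude a pairing or a batch.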

Additional observations from a re-analysis of the deposited data

Results flagged for a closer look

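For 4 of the 63 member probe sets (6.35%, against 8.72% of all probe sets) the arrays of 1 drug's 2 comparisons moved in opposite directions, depending on whether the other drug was present. The interaction term tested that difference and none passed (limma adjusted p = 0.821 for each). PGK1 217356_s_at, a probe set of phosphoglycerate kinase, read 10.47 and 10.34 in combination arrays and 11.26 and 11.21 in rosiglitazone arrays, against 10.53 and 11.03 in carboplatin arrays and 10.43 and 10.93 in control arrays. It was higher with rosiglitazone alone and lower with rosiglitazone on carboplatin (interaction -0.93 ± 0.25), and the other 3 PGK1 probe sets were not flagged. EGLN1 was higher with rosiglitazone alone and lower on carboplatin (interaction -1.25 ± 0.35). VEGFA 210513_s_at followed the same pattern (interaction -0.83 ± 0.30), reading 6.77 and 6.80 in combination arrays, 7.64 and 7.02 in rosiglitazone arrays, 6.96 and 6.95 in carboplatin arrays and 6.73 and 6.61 in control arrays. CA12 210735_s_at read 10.07 and 10.19 in combination arrays, 10.37 and 10.38 in rosiglitazone arrays, 9.84 and 10.23 in carboplatin arrays and 9.61 and 9.79 in control arrays. It was higher with carboplatin alone and lower with carboplatin on rosiglitazone (interaction -0.58 ± 0.20).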

How the results depend on the processing

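EPAS1 kept its call in the main effect of rosiglitazone in 16 of 17 alternatives, with differences of 0.73 to 1.06, and PGM1 in 5, CA12 in 4 and ADM in 3 of 17, none of the 4 changing sign. The 4 member calls there became 1 under the deposited scaling, 1 under median scaling, 2 unfiltered, 0 without an intensity trend, 1 with brightness as a covariate and 1 to 1 when single arrays were left out. In rosiglitazone against control the 1 member call became 0 under both other scalings, unfiltered, without an intensity trend and with brightness as a covariate, and 0 to 1 when single arrays were left out. The lost calls there were without control array 1 or 2 and without rosiglitazone array 1 or 2. With the mean of a gene's probe sets its 1 called gene became 0. The replicate block gave 1 member call in rosiglitazone against control and 3 in the main effect, where ADM was lost (adjusted p = 0.0576), and 0 in the other comparisons. A crossed pairing for control, chosen after seeing the data, gave 1 in the combination against control, EPAS1 (adjusted p = 0.044). Over all probe sets, calls in the main effect of rosiglitazone were 118 (36 to 142), in rosiglitazone against control 48 (3 to 70), in the combination against control 30 (5 to 46), in the combination against carboplatin 21 (4 to 27), in the combination against rosiglitazone 3 (0 to 3), in carboplatin against control 2 (0 to 2), in the main effect of carboplatin 4 (1 to 4) and in the interaction 0 (0 to 3).

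Signs turned for differences near 0, none of them called. In the main effect of rosiglitazone PFKFB3 was 0.18 with the deposited scaling, 0.027 with median scaling and -0.11 to 0.076 leaving out single arrays. GAPDH was 0.15 with the deposited scaling, 0.004 with brightness and -0.037 to 0.002 leaving out single arrays, and EGLN3 was -0.012 to 0.31 in such fits. In the main effect of carboplatin HIF1A was -0.087 with the deposited scaling, -0.021 with median scaling and -0.036 to 0.086 leaving out single arrays. PFKFB3 was -0.018 and VEGFA -0.047 with the deposited scaling, VEGFA -0.022 to 0.15 and EGLN3 -0.27 to 0.053 leaving out single arrays. The cause was not tested. Where a group had 1 array left, it was assumed to vary like the others. No detection calls were used, so changes of dim probe sets are limited by the pseudocount.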

Other observations

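HK2, a hexokinase isozyme often high in tumours, was dim at both probe sets. At 202934_at it read 7.49 and 6.97 deposited signal units in combination arrays, 9.41 and 3.67 in rosiglitazone arrays, 2.72 and 3.19 in carboplatin arrays and 7.69 and 3.20 in control arrays. At 222305_at it read 9.97 and 14.2 units in combination arrays, 13.05 and 4.59 in rosiglitazone arrays, 10.72 and 28.69 in carboplatin arrays and 20.66 and 6.34 in control arrays. The carboplatin arrays were the lowest at the first probe set and included the highest array at the second, and signals below the filter were not tested. A probe set annotated with SLC2A14 and SLC2A3 together, 222088_s_at, passed the filter but was not counted among the members. It read 5.77 and 5.52 log2 units in combination arrays and 5.54 and 5.50 in rosiglitazone arrays. It read 5.79 and 5.90 in carboplatin arrays and 6.10 and 5.59 in control arrays, and which transcript it reads cannot be told apart.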
